A study of Mus musculus with 2 samples.

Results

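Txnip, 4 arrestin relatives, Klf10 and 3 Mondo and Mlx factors were described in osteoblasts of young and old mice after induced apoptosis. These 9 genes were taken by symbol from the 55487 genes of the expression table, and each symbol had 1 Ensembl identifier. The genes were chosen by name, and the set was selected on the old over young difference in FPKM of Txnip, Arrdc4 and Klf10 in these same libraries, so the ratios below are descriptions and carry no test. Of the 9 genes, 8 reached a mean of 1 FPKM over both libraries (fragments per kilobase of gene, scaled to the library total), as did 12561 genes in all. Mlxipl did not.

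There was 1 RNA sequencing library from young and 1 from old mice. In both, stromal cells grown out of mouse bone pieces were passaged 3 times, kept in osteogenic medium for 3 days and then killed with ultraviolet light for 0.5 h, leaving over 90% of them stained by Trypan Blue, which enters leaky cells. The treatment label reads day 0 for young and day 5 for old, so that day and age cannot be told apart. Strain, sex, age in months and the number of animals or cultures are not given in the labels. No unirradiated osteoblasts were compared here.

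Reads assigned to genes numbered 16333396 in young and 18114336 in old. Osteoblast markers were present in both and did not differ in 1 direction. Of 10 measured, 7 had a log2 ratio of old over young below 0 and 3 above, where 59.6% of all measured genes lay below 0. Col1a1 was at 8568 and 6788 FPKM, Runx2 at 92.1 and 72.7 FPKM and Sp7 at 55.5 and 28.9 FPKM in young and old, while Alpl (2.78 and 3.28 FPKM) and Bglap (3 and 6 reads) were scarce. The osteopontin gene Spp1, at 223.8 FPKM in young and 1732 FPKM in old, had a ratio of old over young of 7.74 (counting interval 7.487 to 8.003), and the osteocyte marker Dmp1, at 0.377 and 4.85 FPKM on 17 and 243 reads, one of 12.9 (7.88 to 22.5); they were the 2 osteoblast markers at 2-fold. The summed level of the 11 osteoblast markers, mostly Col1a1, Col1a2 and Sparc, was 20089 FPKM in young and 17079 FPKM in old. None of the 9 blood cell markers and none of the 5 endothelial markers reached a mean of 1 FPKM. The adipocyte list had 1 of 6 markers above it (Cebpa) and the chondrocyte list 3 of 5 (Sox9, Col2a1 and Comp). In young and old, Sox9 was at 44.9 and 51.0 FPKM, Col2a1 at 53.3 and 46.8 FPKM and Comp at 1.41 and 1.05 FPKM. The stromal markers were higher in the old library in 6 of 7 measured genes, where 59.6% of all measured genes were lower. Ly6a, at 11.9 FPKM in young and 104.7 FPKM in old, was the only one at 2-fold. The summed level of the stromal markers was 237 FPKM in young and 469.6 FPKM in old. The part of these differences in the values below was not tested. In bulk RNA, fewer cells of a type and less RNA per cell cannot be told apart.

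Txnip encodes an alpha-arrestin, a scaffold protein that binds and inhibits thioredoxin and draws glucose transporters from the cell surface. The other alpha-arrestins link membrane proteins to ubiquitin ligases of the Nedd4 family. MondoA (Mlxip) and its relative ChREBP (Mlxipl) pair with Mlx, sense phosphorylated glucose, and bind carbohydrate response elements in DNA. Txnip and Arrdc4 are textbook targets of these factors. Klf10 is a zinc finger repressor induced by TGF-beta that has also been described as a glucose-responsive ChREBP target.

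The proximal promoters are shown because Txnip and Arrdc4 lie so far from the other arrestin relatives in their ratios. RefSeq windows of GRCm38.p6, from 250 bases before to 50 bases after the annotated transcription start, were found for 8 of the 9 genes, Klf10 being the one without. In these lines, written 5′ to 3′ along the gene's strand, capitals mark CACGTG (the core E-box that Mlx pairs bind), CCAAT boxes in either direction (CCAAT or ATTGG, bound by NF-Y), and in Txnip a tandem element. The windows are chr3:96557707-96558006 on the plus strand for Txnip, chr7:68749189-68749488 on the minus strand for Arrdc4, and chr8:70839671-70839970 on the minus strand for Arrdc2, a relative whose level differed little.
Txnip: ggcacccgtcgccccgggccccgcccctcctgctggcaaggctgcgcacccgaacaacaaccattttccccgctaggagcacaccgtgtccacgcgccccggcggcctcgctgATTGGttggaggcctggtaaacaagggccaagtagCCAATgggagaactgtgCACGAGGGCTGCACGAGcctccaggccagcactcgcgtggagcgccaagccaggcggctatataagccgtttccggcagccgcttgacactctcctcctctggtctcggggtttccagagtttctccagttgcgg
Arrdc4: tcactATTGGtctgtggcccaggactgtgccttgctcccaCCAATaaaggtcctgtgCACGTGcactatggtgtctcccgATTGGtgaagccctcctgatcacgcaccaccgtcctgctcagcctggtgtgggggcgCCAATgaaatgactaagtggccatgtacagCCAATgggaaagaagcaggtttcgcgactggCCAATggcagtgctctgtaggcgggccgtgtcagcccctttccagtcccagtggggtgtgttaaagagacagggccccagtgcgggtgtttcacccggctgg
Arrdc2: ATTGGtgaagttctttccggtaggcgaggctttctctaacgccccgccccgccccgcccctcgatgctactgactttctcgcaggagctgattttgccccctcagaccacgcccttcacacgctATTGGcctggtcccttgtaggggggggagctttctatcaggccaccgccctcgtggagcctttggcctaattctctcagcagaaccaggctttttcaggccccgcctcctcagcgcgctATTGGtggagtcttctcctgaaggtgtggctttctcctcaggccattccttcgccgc

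The tandem element of Txnip begins 85 bases before the start, at position 96557872 of chromosome 3, and repeats CACGAG after a gap. It has the form CACGNGNNNNNCACGNG, a pattern written after the Txnip window had been read. On both strands together, 16 of 32851 RefSeq windows (0.0487%) held that form. The Txnip window held 2 CCAAT boxes as well, at 137 and 102 bases before the start, and no CACGTG.

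The Arrdc4 window held 1 CACGTG, 193 bases before the start, and 6 CCAAT boxes. CACGTG was found in 7.15% of all windows and CCAAT in 37.4%. Mlx had a CACGTG 40 bases before its start, and Mlxipl had one 98 bases before 1 of its 2 starts. Arrdc2 had 3 CCAAT boxes and no CACGTG. Arrdc1 had neither in its window, Mlxip had 2 CCAAT boxes, and Arrdc3 had 1 CCAAT box in each of 2 overlapping windows. CACGAG, the repeated part of the Txnip element, was found in either direction in 6.47% of all windows. Single copies lay 158 and 118 bases before the start in Arrdc1, 77 in Arrdc2 and 196 in 1 window of Mlxipl. The Arrdc2 copy is in small letters above. A match is a run of letters and not evidence of binding, and a missing match says nothing of sites outside the window.

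**Figure D1:**
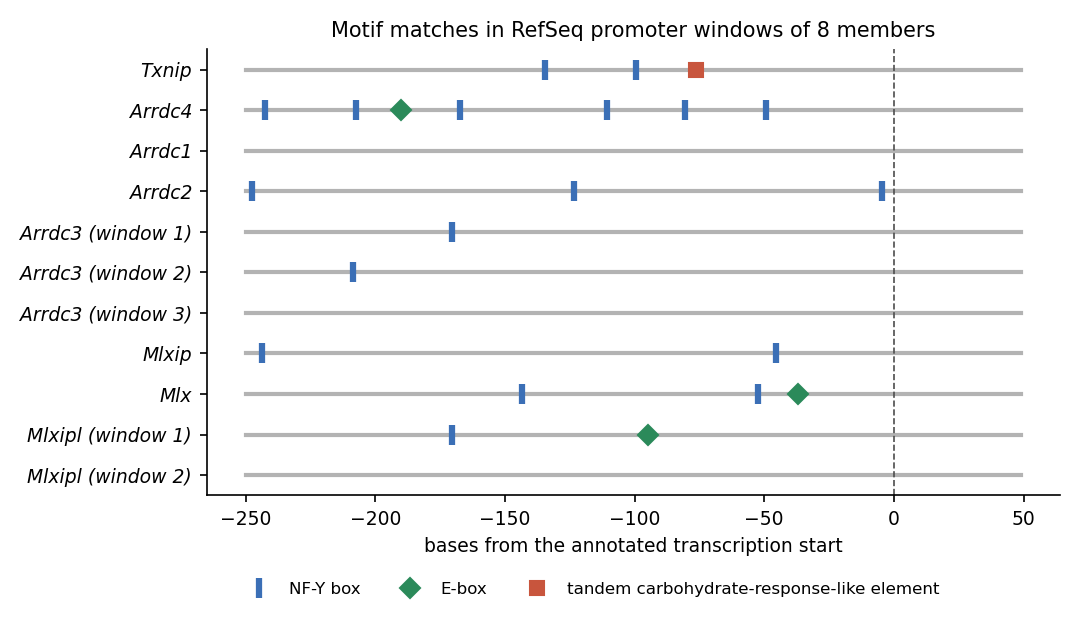
Motif matches in the RefSeq promoter windows of 8 genes; the horizontal axis gives bases from the annotated transcription start, and each line is 1 window. Bars are NF-Y (CCAAT) boxes, diamonds are E-boxes and the square is the tandem element, present only in Txnip among these 11 windows. Arrdc4 carries 6 NF-Y boxes and 1 E-box. Single CACGAG copies are not drawn.

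Of the 15 genes with the tandem form in a window, 9 reached a mean of 1 FPKM. Txnip, at a log2 ratio of −1.79, was the only 2-fold lower gene among them. The other 8 lay between −0.49 (A430005L14Rik, 24.3 and 17.0 FPKM in young and old) and 0.19 (Irak1bp1, 8.67 and 10.0 FPKM). Fnip1, a folliculin partner, was at 17.7 and 17.4 FPKM, and the NF-kB subunit gene Nfkb2 at 58.5 and 55.1 FPKM. Of 1083 measured genes with CACGTG in a window, 7 (0.646%) were 2-fold lower and 8 (0.739%) were 2-fold higher, with a median log2 ratio of −0.03. Of the 7945 without it, 32 (0.403%) were lower and 128 (1.61%) were higher, with a median of −0.07. Arrdc4 is among the 7 lower genes with CACGTG and Txnip among the 32 without it. Both belong to the set selected on this difference, so these shares are no separate result for them.

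Among the alpha-arrestins, Txnip (ENSMUSG00000038393, chromosome 3, 96557957 to 96561883, GRCm38) was at 617 FPKM in the young library and 178 FPKM in the old, on 12990 and 4147 reads. The old library held the lower level by a factor of 3.47. The ratio of old over young was 0.288, with a 95% counting interval of 0.278 to 0.298, which covers counting error between these libraries only. By level, Txnip ranked 143rd of all genes in the young library and 560th in the old. On the log2 scale of FPKM + 1, its ratio of −1.79 was the lowest of 1160 genes whose mean level reached 100 FPKM, 4 of which (0.345%) were 2-fold lower.

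Gm15441, an antisense RNA gene, covers 19.4% of the exon bases of Txnip on the other strand. It had 16 reads in young and 8 in old, so that Txnip was at 728 times its level in young and 465 times in old. Use of strand in counting is not given in the sources used here, and reads from the shared bases cannot be assigned to one of the genes. No word of 50 bases from a Txnip transcript was found in the transcripts of another gene.

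Arrdc4 (ENSMUSG00000042659, chromosome 7, 68736995 to 68749241), the closest relative of Txnip in its regulation by glucose, was at 39.2 FPKM in young and 11.5 FPKM in old, on 1613 and 525 reads. The ratio was 0.293 (0.265 to 0.324), an interval that overlaps that of Txnip. The proportion between the pair was accordingly alike in both libraries: Txnip was at 15.7 times the level of Arrdc4 in young (14.9 to 16.6) and 15.4 times in old (14.1 to 16.9). Arrdc4 went from rank 3507 by level in the young library to 7729 in the old.

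The remaining alpha-arrestins differed little. Arrdc1, an adaptor that drives budding of microvesicles from the plasma membrane, was at 12.9 FPKM in young and 14.0 FPKM in old, a ratio of 1.08 (0.889 to 1.32) that includes no difference. Arrdc2 was at 11.3 and 9.09 FPKM, a ratio of 0.804 (0.658 to 0.983). Arrdc3, an adaptor known for beta-adrenergic receptors, was at 5.96 and 4.43 FPKM, a ratio of 0.743 (0.610 to 0.906). These 3 genes rested on 188 to 228 reads per library, so differences of this size are close to what the counts can resolve. None of them was 2-fold different. Summed over Arrdc1, Arrdc2 and Arrdc3, the level was 30.2 FPKM in young and 27.5 FPKM in old.

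The arrestin make-up of the libraries differed accordingly. The summed level of the 5 alpha-arrestins was 686 FPKM in young and 217 FPKM in old. Txnip supplied 89.9% of it in young and 82.0% in old, Arrdc4 5.72% and 5.32%, and the other three 4.40% and 12.7%.

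Klf10 (ENSMUSG00000037465, chromosome 15, 38291463 to 38300706) was at 38.5 FPKM in young and 10.7 FPKM in old, on 996 and 307 reads. The ratio of 0.278 (0.244 to 0.316) overlaps the intervals of Txnip and Arrdc4. None of the 4179 exon bases of Klf10 is shared with an exon of another gene. Klf10 and Arrdc4 stood at about the same level in each library, with Arrdc4 at 1.02 times Klf10 in young (0.941 to 1.10) and 1.08 times in old (0.932 to 1.24).

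The Mondo and Mlx factors themselves were close to even. Mlxip, which encodes MondoA, was at 16.8 FPKM in young and 17.6 FPKM in old, a ratio of 1.05 (0.966 to 1.14). Mlx, the shared partner, was at 40.1 and 36.8 FPKM, a ratio of 0.919 (0.829 to 1.02). Both intervals include 1. Psmc3ip (14.0 and 12.1 FPKM) overlaps 19.3% of the exon bases of Mlx on the other strand. Mlxipl, which encodes ChREBP, had 0 reads in young and 1 in old. For it 3 reads would be 0.0882 FPKM in young and 0.0795 FPKM in old, and no fold is given.

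MondoA mRNA was thus present without measurable ChREBP mRNA in both libraries, and Mlx was at 2.38 times the level of Mlxip in young (2.17 to 2.62) and 2.09 times in old (1.91 to 2.29). Txnip was at 36.7 times the level of Mlxip in young (34.5 to 39.1) and 10.1 times in old (9.46 to 10.7). Levels of mRNA say nothing of the place or activity of the MondoA protein, which were not measured.

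**Figure D2:**
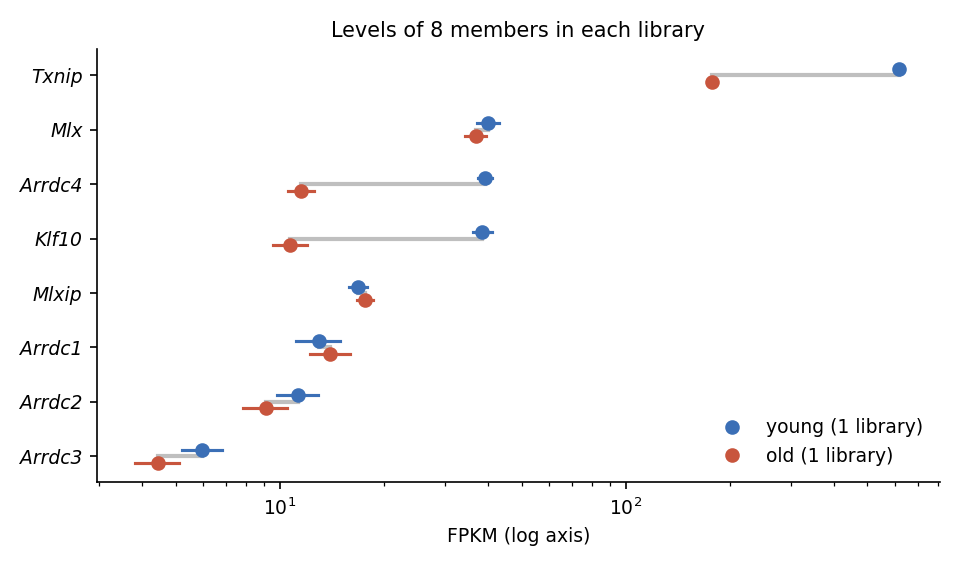
FPKM of the 8 measured genes on a log axis, with 1 point per library (blue young, red old) and bars for the 95% Poisson counting interval. Txnip, Arrdc4 and Klf10 are separated between the libraries (617 and 178, 39.2 and 11.5, 38.5 and 10.7 FPKM), and the other 5 pairs lie close together; Mlxipl, with 0 and 1 read, is left out.

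In order of level in the young library, Txnip stood first and far above the rest. Mlx (40.1 FPKM, counting interval 37.2 to 43.1), Arrdc4 (37.3 to 41.2) and Klf10 (36.2 to 41.0) followed without being separable. Mlxip (15.8 to 17.8) came next, then Arrdc1 (11.2 to 14.9) and Arrdc2 (9.83 to 12.9), which overlap each other, then Arrdc3 (5.21 to 6.78) and Mlxipl. In the old library Txnip was again first (172 to 183), followed by Mlx (34.2 to 39.5) and then Mlxip (16.7 to 18.6). Arrdc1 (12.2 to 15.9), Arrdc4 (10.6 to 12.5), Klf10 (9.54 to 11.97) and Arrdc2 (7.84 to 10.5) formed a chain in which each overlaps its neighbour, and Arrdc3 (3.82 to 5.11) lay below. Arrdc4 and Klf10, level with Mlx in young, thus stood below Mlxip in old. The deposited levels divide by the average length over all annotated transcripts. With the longest transcript in its place, Txnip was at 281 and 81.0 FPKM in young and old, the 5 alpha-arrestins summed to 323 and 103 FPKM, Txnip was at 475 and 303 times Gm15441, Arrdc4 was at 1.26 and 1.33 times Klf10, and Arrdc4 (25.3 FPKM) stood above Mlx (23.0 FPKM) in young, while the old over young ratios are the same by construction. On that length Txnip was at 11.1 and 10.9 times Arrdc4 and at 30.8 and 8.46 times Mlxip in young and old. Klf10 was at 7.27 and 5.42 times Klf11, and Slc2a1 at 0.377 and 2.86 times Arrdc4. The ratios of Txnip to Gm15441 stay inside their counting intervals, and no interval was computed for the sums. The other values given here on the longest transcript lie outside the counting intervals for the deposited levels.

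Of the 8 measured genes, Txnip, Arrdc4 and Klf10 were at least 2-fold lower in the old library on the log2 scale of FPKM + 1, and none was 2-fold higher. Over all 12561 measured genes 0.868% were 2-fold lower and 1.97% higher. The set was chosen with this difference in view, so its share is not read against these figures. The median log2 ratio of the 8 genes was −0.32 and that of all measured genes −0.07. Of all measured genes, 59.6% had a log2 ratio below 0. The 5 genes short of 2-fold lay between −0.36 and 0.11. Among all 12561 measured genes, Txnip, Klf10 and Arrdc4 had ranks 15, 17 and 22 from the lowest ratio. Among the 8264 genes averaging 10 FPKM or more, they ranked 2nd, 3rd and 6th.

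**Figure D3:**
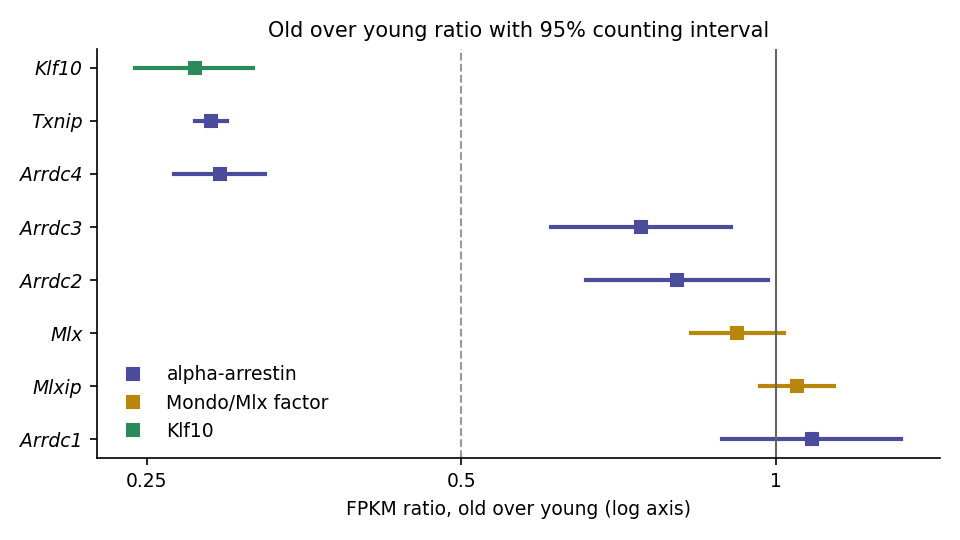
Ratio of FPKM, old over young, on a log axis for the 8 measured genes, with 95% Clopper-Pearson counting intervals; the solid line is no difference and the dashed line a halving. Klf10, Txnip and Arrdc4 lie between 0.278 and 0.293 with overlapping intervals, and the other 5 lie between 0.743 and 1.08.

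**Figure D4:**
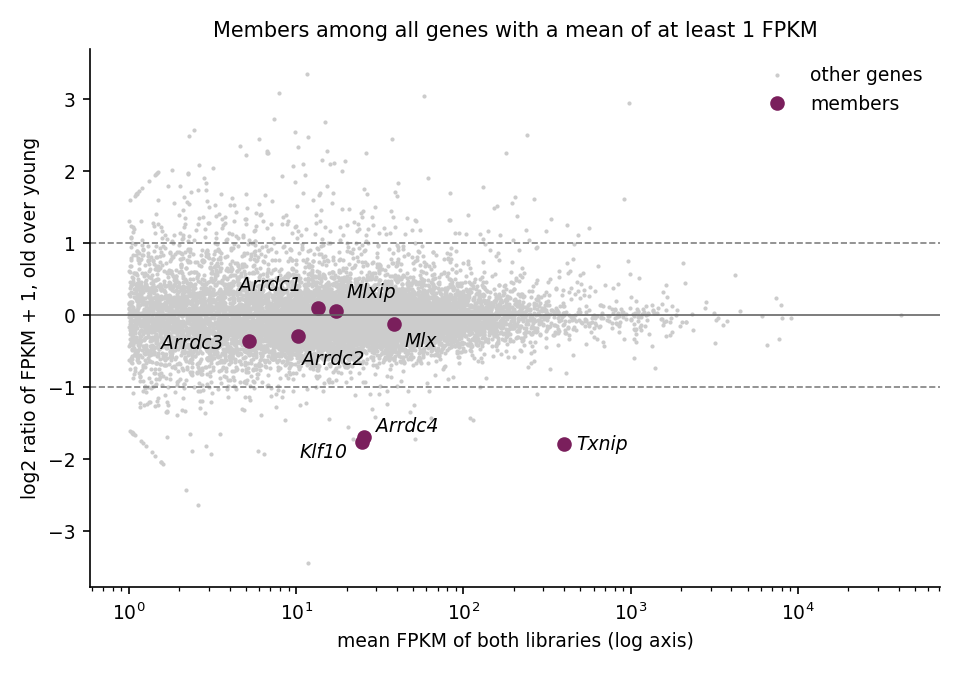
Log2 ratio of FPKM + 1, old over young, against the mean FPKM of both libraries (log axis) of 12561 genes, with the 8 measured genes as purple points and dashed lines at 2-fold. Txnip, at a mean of 397 FPKM, lies at −1.79, below every other gene averaging 100 FPKM or more.

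With 2 libraries, likeness of pattern can only mean likeness of ratio. Among 1108 other named genes averaging 100 FPKM or more, with placeholder and pseudogene symbols left out, the nearest to Txnip were Ifi27, an interferon-inducible gene (159 and 58.7 FPKM, log2 ratio −1.43), Id3, an inhibitor of basic helix-loop-helix factors (376 and 176 FPKM, −1.10), and Socs3, a feedback inhibitor of cytokine signalling (168 and 83.7 FPKM, −0.998). The immediate-early gene Ier2 (−0.87) and Nsg1 (−0.80) came after them. Txnip has the lowest ratio at this level, so these are only the next lowest named genes. Their log2 ratios lie 0.365 (Ifi27) to 0.988 (Nsg1) from that of Txnip. Among 7864 other named genes averaging 10 FPKM or more, placeholder and pseudogene symbols again left out, the 3 nearest to Arrdc4 were Mir143, Klf10 and Txnip, and those nearest to Klf10 were Txnip, Mir143 and Arrdc4. Mir143 rests on 35 and 11 reads, and its ratio interval runs from 0.130 to 0.571. The set was selected on the difference of Txnip, Arrdc4 and Klf10, and few genes have ratios so low. That these 3 lie near each other is therefore no separate result.

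Thioredoxin, the partner that Txnip inhibits, was near even. Txn1 was at 209 FPKM in young and 226 FPKM in old, a ratio of 1.08 (1.04 to 1.13). Txnip mRNA was therefore at 2.95 times the level of Txn1 in young (2.84 to 3.06) and at 0.785 times in old (0.752 to 0.819), and the order of the 2 genes was reversed. These ratios rest on the transcript length used: with the longest transcript, Txnip was at 1.35 times Txn1 in young and 0.358 times in old. None of the 14 thioredoxin and peroxiredoxin genes was 2-fold different and their median log2 ratio was 0.01. The largest differences were in Srxn1, which repairs peroxiredoxins (56.9 and 74.9 FPKM), the reductase Txnrd3 (3.86 and 2.71 FPKM), the nucleoredoxin gene Nxn (80.7 and 102 FPKM) and Prdx6 (53.2 and 63.9 FPKM).

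Of the other arrestin-fold genes, 5 of 8 were measured, none 2-fold different, with a median of −0.01. The beta-arrestin gene Arrb1 was at 1.85 and 3.56 FPKM in young and old, a ratio of 1.93 (1.45 to 2.57), and Arrb2 at 25.7 and 21.3 FPKM. The retromer subunits Vps26a (44.8 and 53.9 FPKM) and Vps26b (24.0 and 19.2 FPKM) went opposite ways. The alpha-arrestin Arrdc5 had 4 reads in young and 0 in old.

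The ubiquitin ligases that alpha-arrestins recruit differed little, with none of 7 measured genes at 2-fold and log2 ratios from −0.18 to 0.17. Nedd4, the most abundant of them, was at 520 and 486 FPKM, Itch, which ubiquitinates Txnip, at 31.0 and 27.2 FPKM, Nedd4l at 13.4 and 15.2 FPKM, Wwp1 at 10.1 and 11.1 FPKM and Wwp2 at 80.4 and 90.4 FPKM. The ESCRT machinery, with which Arrdc1 works through Tsg101, showed no 2-fold difference in its 14 genes, whose median was −0.07. Tsg101 itself was at 99.1 and 82.2 FPKM, Vps4a at 72.1 and 61.2 FPKM, Mvb12a at 56.1 and 66.7 FPKM and Pdcd6ip at 82.3 and 96.4 FPKM.

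Genes of glucose entry and of glucose-6-phosphate, the signal that MondoA senses, were mostly higher in the old library, though mostly short of 2-fold. Of 22 listed, 11 were measured, 8 with a log2 ratio above 0, 1 at 2-fold higher and none 2-fold lower, with a median log2 ratio of 0.34, where 59.6% of all measured genes lay below 0. The transporter Slc2a1, a cargo of Txnip, was at 21.4 and 47.7 FPKM, a ratio of 2.23 (2.01 to 2.48). It stood at 0.544 times the level of Arrdc4 in young (0.492 to 0.602) and 4.14 times in old (3.74 to 4.59). The hexokinases Hk2 (6.93 and 14.7 FPKM) and Hk1 (104 and 148 FPKM) and the pentose phosphate enzyme G6pdx (59.1 and 104 FPKM) had log2 ratios of 0.99, 0.50 and 0.80. The FPKM ratio of Hk2 was 2.12 (1.84 to 2.46), so it fell short of 2-fold only on the scale of FPKM + 1. Slc2a3 had 0 and 2 reads, and Slc2a4 had none.

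Other genes described as targets of ChREBP or MondoA were mostly higher in the old library, without reaching 2-fold. Of 17 listed, 9 were measured, none at 2-fold, and 8 had a log2 ratio above 0. Their median log2 ratio was 0.30, where 59.6% of all measured genes lay below 0. The fatty acid elongase Elovl6 was at 33.0 and 60.2 FPKM in young and old, a ratio of 1.82 (1.70 to 1.95), and the desaturase Scd1 at 68.5 and 112 FPKM, a ratio of 1.64 (1.56 to 1.73). The malic enzyme Me1 (50.3 and 67.5 FPKM) and Acaca (20.3 and 25.4 FPKM), which makes malonyl-CoA, had log2 ratios of 0.42 and 0.31. Pklr, the liver pyruvate kinase and best known ChREBP target, had no reads. Many of these genes also answer to SREBP factors, and the part of either kind of factor in these values was not tested. Srebf2 (94.8 and 121 FPKM) and Srebf1 (36.5 and 44.3 FPKM) had log2 ratios of 0.35 and 0.27. The other E-box factors of that list were measured in 7 of 8 cases with none at 2-fold and a median of 0.17, among them Mitf (4.05 and 5.54 FPKM) and Tfe3 (17.9 and 20.2 FPKM).

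The Myc, Max and Mxd network, to which the Mondo and Mlx proteins belong, had none of 8 measured genes at 2-fold and a median of −0.03. Myc itself was at 81.8 and 56.6 FPKM, a ratio of 0.692 (0.650 to 0.737). The repressors Mxd1 (13.5 and 8.56 FPKM) and Mxd4 (156 and 107 FPKM), which can pair with Mlx, were also lower in old, at log2 ratios of −0.60 and −0.54. Mnt, a further Mlx partner, was higher at 14.8 and 21.2 FPKM (0.49).

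Among 16 other Kruppel-like factors, 9 were measured and 1 was 2-fold lower. This was Klf11, the closest paralog of Klf10 and likewise a TGF-beta-inducible repressor. It was at 7.76 FPKM in young and 2.89 FPKM in old, on 184 and 76 reads, a ratio of 0.372 (0.281 to 0.489). That interval overlaps the interval of Klf10. Klf10 was at 4.97 times the level of Klf11 in young (4.24 to 5.84) and 3.71 times in old (2.87 to 4.83). Klf4 (44.7 and 72.8 FPKM), Klf13 (19.0 and 26.7 FPKM) and Klf6 (41.4 and 33.2 FPKM) had log2 ratios of 0.69, 0.47 and −0.31, and the median of the 9 was 0.09.

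Most TGF-beta pathway genes were higher in the old library. All 16 were measured, 13 with a log2 ratio above 0 and none at 2-fold higher. The median was 0.25, where all measured genes had a median of −0.07 and 59.6% of them lay below 0. The co-receptor Tgfbr3 was at 21.9 and 39.3 FPKM, and the ligand Tgfb2 at 16.1 and 23.5 FPKM. The connective tissue growth factor gene Ccn2 was the single 2-fold lower gene, at 11.6 and 5.06 FPKM (log2 ratio −1.05), and the AP-1 gene Junb was at 310.2 and 195.7 FPKM (−0.66).

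**Figure D5:**
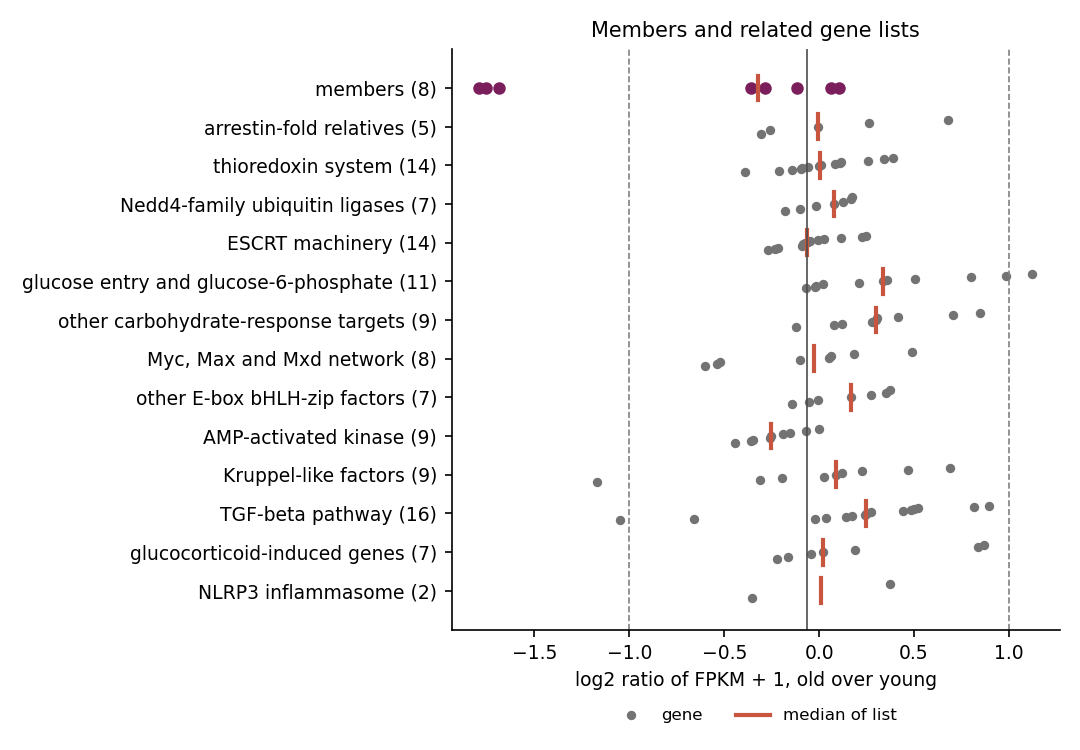
Log2 ratio of FPKM + 1 (old against young) of each measured gene (points) of the 9-gene set and of 13 related lists with at least 2 measured genes, with the list median as a red bar, the number measured in brackets, the median of all genes as a solid line and 2-fold as dashed lines. Txnip, Klf10 and Arrdc4 lie left of −1.6, where no gene of a related list does; Klf11 (−1.17) and Ccn2 (−1.05) are the only genes of these lists below −1, and Slc2a1 (1.12) is the only one above 1.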

How the data were processed

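The authors deposited 1 table of FPKM values for 1 young and 1 old library. Per the submitters' processing notes, fastp, STAR, HTSeq, edgeR and build mm10 were used; for their roles and versions, the annotation, filters and strand use, the sources used here say nothing. Symbols and positions came from GENCODE M21 (GRCm38), which held 55227 of 55487 identifiers, and promoter windows from RefSeq (GRCm38.p6).

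Reads were recovered by multiplying each FPKM value by the rounded mean length of the gene's transcripts; 97.6% of values above 0 in each library came out whole within 0.01 reads. Totals were 16333396 (young) and 18114336 (old). Intervals (95%, Clopper-Pearson for ratios, Poisson for levels) cover counting error only, since PCR copies are not independent molecules.

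Log2 ratios were of FPKM + 1, old over young, for genes averaging 1 FPKM or more, and understate differences of low genes; 2-fold was the threshold. With 1 library per age there is no replicate check and no test was run. The genes and the 20 lists were chosen with earlier results of these data known. Up to 4 measured genes with the largest absolute log2 ratio were named per list, together with all 9 members and marker genes; the 5 genes nearest Txnip in ratio (mean of at least 100 FPKM) and the 3 nearest Arrdc4 and Klf10 (at least 10 FPKM) were named, without placeholder and pseudogene symbols. Results for a few listed genes were left out. Other genes named were chosen after their values were seen. Shared sequence was searched in words of 50 bases taken every 25. Alternatives were pseudocounts of 0.1 and 5, other filters and other scalings. The calculation was tested on simulated data. Python 3.11.15, pandas 2.3.3 and SciPy 1.17.1 were used.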

Additional observations from a re-analysis of the deposited data

How the results depend on the processing

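Txnip, Arrdc4 and Klf10 stayed at least 2-fold lower under all 6 alternatives run, with no measured member 2-fold higher under any. Of 47 member ratios under the alternatives, 44 moved by less than the half-width of their counting interval and none changed sign. Much of that was fixed in advance, since a filter cannot change a gene's own ratio. The scalings move all genes by nearly the same small amount (0.001 on the log2 scale for the rescaling). Arrdc4 and Klf10 were at −1.42 and −1.47 at a pseudocount of 5, and Txnip at −1.73 after centring on the median of all genes. Counts over all genes moved more: 109 were 2-fold lower and 248 higher as reported, a pseudocount of 0.1 gave 236 lower and 408 higher, one of 5 gave 20 lower and 101 higher, and a filter at a mean of 10 FPKM left 27 lower and 106 higher. Higher genes were 69.5% of those at 2-fold, and 77.3% after centring. Of 119 measured genes in the related lists, 2 were 2-fold lower and 1 higher. With the pseudocount of 0.1, 2 of them were higher; with that of 5, 0 were lower and 0 higher; with the filter at 10 FPKM, 0 were lower; after centring, 1 was lower and 2 were higher. A larger pseudocount shrinks the ratios of low genes by construction, and Klf11 and Ccn2 are low genes. No replicate could be left out. No paired analysis was possible because each age has 1 library. The intervals show counting error only, which is smallest for Txnip and largest for Arrdc1, Arrdc2 and Arrdc3 among the measured members. The levels of all 8 members moved with the length of the longest transcript, an alternative chosen after seeing the data.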

Other observations

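Genes of the AMP-activated kinase, which phosphorylates Txnip and marks it for degradation, had log2 ratios below 0 in all 9 measured cases of 10 listed, with none at 2-fold and a median log2 ratio of −0.26 against −0.07 for all genes, of which 59.6% lay below 0. The catalytic subunit gene Prkaa1 was even at 13.9 and 13.8 FPKM in young and old. The regulatory subunits Prkab2 (16.1 and 11.6 FPKM, ratio 0.720, counting interval 0.644 to 0.804), Prkag3 (2.26 and 1.56 FPKM) and Prkag1 (90.3 and 75.4 FPKM) and the Stk11 partner Strada (17.5 and 13.4 FPKM) differed most.

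Txnip is also known as a glucocorticoid-induced gene. Of 8 other such genes, 7 were measured, none at 2-fold, with a median log2 ratio of 0.02. Errfi1 (7.04 and 13.7 FPKM) and Sgk1 (49.2 and 88.7 FPKM) were higher in old, at 0.87 and 0.84, while Tsc22d3, Fkbp5 (18.7 and 15.9 FPKM) and Per1 lay between −0.22 and −0.04, and Dusp1 was at 29.1 and 33.3 FPKM. The NLRP3 inflammasome, to which Txnip has been reported to bind, was barely represented: Nlrp3 had 4 and 3 reads, Casp1 2 and 5, Il1b 1 in each library and Pycard 0, while Il18 (19.3 and 14.9 FPKM) and Gsdmd (23.1 and 30.2 FPKM) were measured.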
